A study of Mus musculus with 15 samples.

Results

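Medulloblastomas, tumours of the cerebellum, were compared between 2 X-ray doses within one tumour type. The labels call each of the 12 tumours of the series S-type or R-type, and the letters are not explained there. The comparison takes the 6 tumours labelled R-type, of 15 samples in all: MB7, MB8 and MB9 from mice that had received 0.2 Gy (n = 3) and MB10, MB11 and MB12 from mice that had received 1.5 Gy (n = 3). All 6 mice were labelled female, of the C3B6F1 background and Ptch1+/-, that is, born with 1 working copy of Ptch1, and were exposed to X-rays on postnatal day 1. They were watched daily and killed once moribund. The other samples were 6 S-type tumours of Ptch1+/- mice (3 at 0 Gy, 3 at 0.2 Gy given on postnatal day 1) and 3 normal cerebella, which enter here as a reference. The series has no unirradiated R-type tumour and no S-type tumour at 1.5 Gy, so the dose step was measured within R-type tumours only.

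Ptch1 encodes the receptor that holds the sonic hedgehog (SHH) pathway in check, and granule neuron precursors of the young cerebellum divide in response to that pathway. When the remaining working copy is lost or silenced, the pathway runs without its brake, and medulloblastomas of this mouse line arise from these precursors. X-rays given in the first days of life, while the precursors are dividing, are known to make such tumours more frequent.

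RNA of each tumour was hybridised to 1 one-colour Agilent array. Each value is a log2 signal from which the 75th percentile of its array was subtracted, so that 0 is a bright probe and a difference of 1 is a 2-fold difference. Of the probes, 60.9 to 63.4% were well above background on the 6 arrays. Each tumour has its own name and age in the labels. Unless stated otherwise, p-values of single genes rest on a spread pooled over all groups of the series, S-type tumours and normal cerebella included. They do not measure the spread between the 6 R-type tumours alone. Age at sampling, for which no unit is given, was 127, 106 and 113 at 0.2 Gy and 87, 101 and 103 at 1.5 Gy, so that the groups did not overlap. It was 160, 173 and 172 in the S-type tumours at 0 Gy and 128, 133 and 135 in those at 0.2 Gy. In the normal cerebella it was 103, 103 and 113. Every S-type age lay above every R-type age, so values set against the S-type mean cannot part tumour type from age. All 3 arrays of the 1.5 Gy tumours lay at position 4 of their slide and no other array of the series did. Dose, age and array position therefore cannot be told apart by group. Xist, the RNA of the inactive X chromosome, stood at −4.09 in MB9 and at 0.08 to 1.11 in the other 5 tumours. The Xist probe was well above background in MB9 too, and 0 of 5 probes of Y-linked genes were well above background in MB9 or in the other R-type tumours, against 4 of 5 in MB6, an S-type tumour labelled male.

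Few genes were called between the doses, and those with a symbol lay in 1 stretch of chromosome 13. Of 21667 genes tested, 15 were called at an adjusted p below 0.05 in limma with Benjamini-Hochberg adjustment, or 0.0692%. Of these, 14 fell (0.0646% of the tested genes) and 1 rose at 1.5 Gy. The 9 called genes that have a symbol all fell, by 0.76 to 0.99 on the log2 scale, and all 9 lie on chromosome 13. The remaining 6 carry accession names only, and their positions were not used here. For scale, the same fit called 1 gene between S-type tumours at 0.2 Gy and 0 Gy (0.00462%) and 1052 genes between R-type and S-type tumours at 0.2 Gy (4.86%), a comparison that shares MB7 to MB9.

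**Figure D1:**
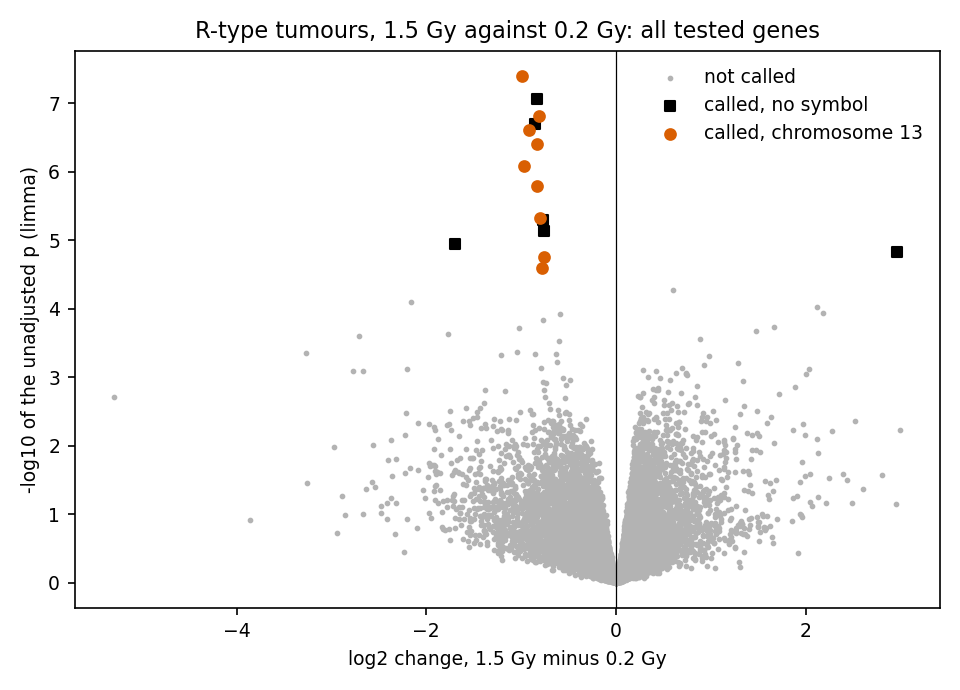
Change of each tested gene between doses (x axis, log2, 1.5 Gy minus 0.2 Gy) against the −log10 of its unadjusted p in limma (y axis); grey points were not called, orange circles are the 9 called genes of chromosome 13 and black squares the 6 called genes without a symbol. The orange circles stand together at changes of −0.99 to −0.76, above the grey cloud.

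The number of calls depended on single tumours and on the spread used. It was 159 without MB8, 9 without MB9, 25 without MB10 and 28 without MB11. With only the 6 R-type arrays in the fit no gene was called by limma, with 1382 at an unadjusted p below 0.05, and none was called with each array centred on its median in place of the 75th percentile, with 1437 at an unadjusted p below 0.05. With age as a term 8 genes were called, all lower and all among the 15. Quantile normalization gave 4 higher and 15 lower calls.

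At an unadjusted p below 0.05 there were 1565 genes (7.22% of those tested), 801 higher and 764 lower at 1.5 Gy. Without scaling, 385 were higher and 770 lower, and with the array median subtracted 883 were higher and 554 lower, so the balance of directions rests on the scaling. The total was 859 without MB7, 2374 without MB8 and 985 without MB9. Values of the doses did not overlap for 2610 genes (12.0%), of which 1466 were higher (6.77%) and 1144 lower (5.28%) at 1.5 Gy.

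The precision was fair for most genes. The median standard error of a log2 change was 0.170, and the 95% interval of the change lay within 1 of 0, that is within 2-fold, for 16946 genes (78.2%). Among the 17883 genes well above background on all 6 arrays this held for 15683 (87.7%). The median change over all genes was 0.02. A change of 2-fold or more in either direction was measured for 684 genes, nearly all of them not called.

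The called genes with symbols belong to mitochondria, cell division and chromatin among others. Ndufs6, a subunit of respiratory complex I, had log2 signals of 3.98 (MB7), 3.97 (MB8) and 4.08 (MB9) at 0.2 Gy and of 3.08 (MB10), 3.08 (MB11) and 2.89 (MB12) at 1.5 Gy. The groups lay far apart compared with the spread inside them, and the 0.2 Gy tumours were near the S-type mean of 3.88. Ndufs6 fell by 0.99 (SE 0.079, adjusted p 0.000862 in limma), and its 2 other probes gave −1 and −0.94.

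Mrpl36, a protein of the large mitochondrial ribosomal subunit, stood at 2.89, 2.89 and 2.95 in MB7 to MB9 and at 2.08, 1.97 and 1.77 in MB10 to MB12. It fell by 0.97 (SE 0.103, adjusted p 0.00252 in limma). Brd9, a bromodomain subunit of a SWI/SNF chromatin remodelling complex, stood at 1.25, 1.39 and 1.35 against 0.56, 0.32 and 0.36. It fell by 0.91 (SE 0.086, adjusted p 0.00107 in limma). In both genes every 1.5 Gy tumour lay below every 0.2 Gy tumour, and the 0.2 Gy tumours stood close to the S-type means of 2.79 and 1.36.

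The same split held for the other 6. Sdha, the flavoprotein subunit of respiratory complex II, was at 1.54, 1.31 and 1.57 in the 0.2 Gy tumours and at 0.89, 0.52 and 0.69 in the 1.5 Gy tumours (log2 change −0.78, adjusted p 0.037 in limma), and its other probe gave −0.76. Trip13, an ATPase of the mitotic checkpoint, was at 2.98, 3.14 and 2.97 against 2.31, 2.33 and 2.15 (log2 change −0.76, adjusted p 0.0267). Pdcd6, a calcium-binding protein linked to cell death and membrane traffic, was at 3.99, 4.14 and 4.11 against 3.34, 3.24 and 3.22 (log2 change −0.81, adjusted p 0.00107). Clptm1l, a membrane protein, fell by 0.84, Zfp825, a zinc finger protein, by 0.83 and Ccdc127, a coiled-coil protein, by 0.80. The calls of Ndufs6, Mrpl36, Brd9, Clptm1l, Zfp825 and Pdcd6 were lost under 2 of 20 alternatives, the median centring (adjusted p 0.0896 to 0.189) and the fit on 6 arrays (adjusted p 0.232 to 0.299). Those of Ccdc127, Sdha and Trip13 were lost under 5, 11 and 10 of 20, among them without MB9 (adjusted p 0.0746 for Ccdc127, 0.222 for Sdha and 0.0987 for Trip13). With slide as a fixed term Trip13 was not called (adjusted p 0.161), and the other 8 genes were. Over the alternatives the adjusted p ranged from 0.000856 to 0.387 for Ccdc127, from 0.00197 to 0.67 for Sdha and from 0.00287 to 0.364 for Trip13, and every change kept its direction.

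Among the called names without a symbol, AK155286 fell by 0.83, AK049441 by 0.85, AK005350 by 0.77 and AK012940 by 0.76 on the log2 scale. ENSMUST00000096129 was not well above background on any of the 6 arrays, so its size has no meaning here. AK053479, the single call that rose, was well above background on all 3 arrays at 1.5 Gy and on none at 0.2 Gy, with mean log2 signals of −4.54 and −7.51. Measured against the lowest signals well above background it was at least 1.78-fold higher at 1.5 Gy. Its means in S-type tumours and normal cerebella were −7.72 and −7.40. It met the filter of 3 arrays well above background through the 1.5 Gy group, where it was high. Its adjusted p of 0.025 in limma is therefore a description and no support for the change.

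In the order of genes along chromosome 13, the 9 called genes lie in 1 stretch that runs from Ndufs6 to Zfp825 and holds 17 tested genes, all well above background on the 6 arrays. Every one of the 17 had a change below 0, with a median of −0.78 and a range of −1.39 to −0.19. Values of the doses did not overlap for 14 of the 17, where 5.28% of all tested genes were lower without overlap; the stretch was bounded by the called genes, so that count is a description. The median change was −0.80 between MB11 and MB8 on slide 2 and −0.73 between MB12 and MB7 on slide 3, the 2 slides that held both doses. It ranged from −0.89 to −0.71 over 20 alternatives in processing.

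Relative to the mean of the S-type tumours, the median of the 17 genes was 0.03, 0.10 and 0.15 in MB7, MB8 and MB9 and −0.63, −0.78 and −0.72 in MB10, MB11 and MB12. The 0.2 Gy tumours thus stood at the S-type level and the 1.5 Gy tumours below it. The 8 genes of the stretch that were not called included Tppp, a tubulin-binding protein of oligodendrocytes (log2 change −1.39, adjusted p 0.572), and Ahrr, the repressor of the aryl hydrocarbon receptor (−0.72, adjusted p 0.572). Tppp varied widely among the 1.5 Gy tumours, from −4.47 in MB11 to −2.82 in MB10. Exoc3, a subunit of the exocyst, had a change of −0.49 (adjusted p 0.572) with the probe used. Its other probe gave −0.74 and was called when all probes were fitted one by one (adjusted p 0.00167). The smallest changes were those of Slc12a7, a potassium-chloride cotransporter (−0.19), Tert, the catalytic subunit of telomerase (−0.23), and Nkd2, an inhibitor of WNT signalling (−0.27).

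**Figure D2:**
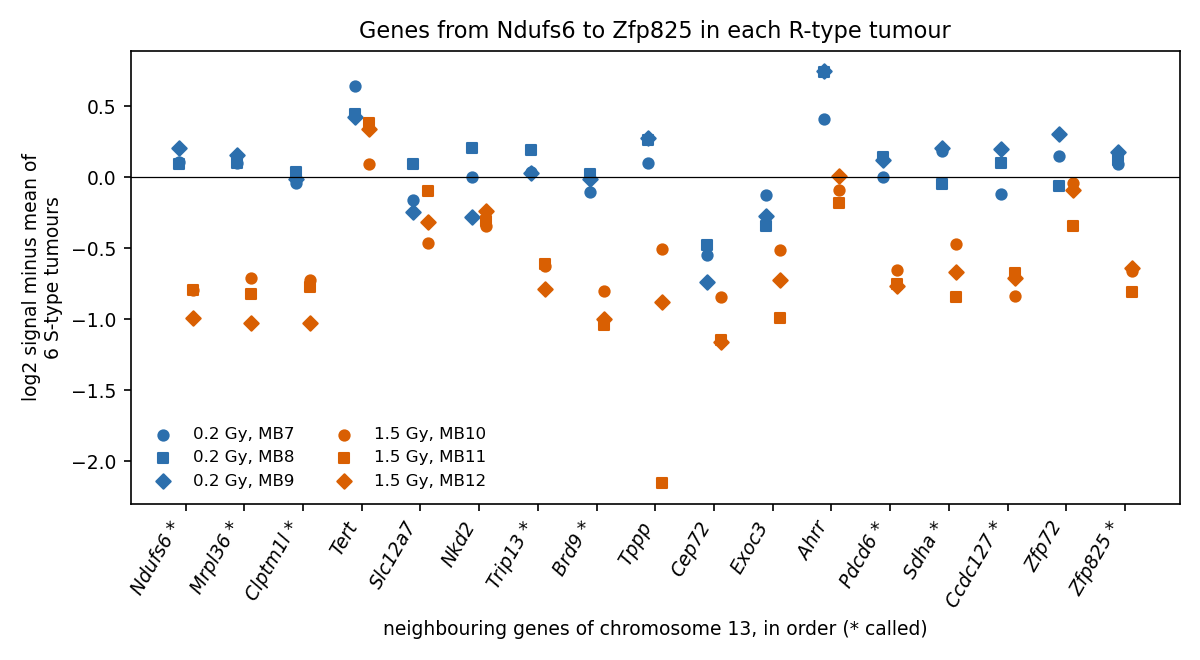
Log2 signal of each R-type tumour minus the mean of the 6 S-type tumours (y axis) for the 17 tested genes from Ndufs6 to Zfp825 in chromosomal order (x axis); blue symbols are 0.2 Gy tumours, orange symbols 1.5 Gy tumours, and asterisks mark the 9 called genes. Over the 17 genes the medians of the blue tumours are 0.03, 0.10 and 0.15 and those of the orange tumours −0.63, −0.78 and −0.72.

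The stretch is the part of a longer lowered region in which the doses differed. Each R-type tumour had a run of neighbouring genes around Ptch1 with signals below the S-type mean. A run was defined as the stretch of ordered genes through Ptch1 that gathers the largest sum of shortfalls beyond 0.4 log2 units, with single genes held between −1.5 and 0.5, over the 409 genes of chromosome 13 well above background in all 12 tumours. Inside the runs the median was −0.67 to −0.80, which is a description, since the search selects for low values. In each of the 6 S-type tumours the same search, against the other S-type tumours, gave a run of 1 gene. That is the least the search can return, since a run must hold Ptch1. With 0.3 in place of 0.4 the run of MB2, an S-type tumour, held 3 genes. Expression alone was used for these runs. Array-CGH, named in the title of the series, measures DNA copy number and was not analysed here.

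The far ends of the runs, on the side of Ndufs6, followed each other in steps. After Ptch1 the run held 9 genes in MB7 and 9 in MB9, both ending at Mfsd14b, and 32 in MB8, ending at Med10. It held 48 in MB10, ending at Ccdc127, 61 in MB12, ending at 2210408I21Rik, and 73 in MB11, ending at Edil3. Each 1.5 Gy tumour thus had a longer run on this side than each 0.2 Gy tumour, and only the genes between Med10 and Ccdc127 were inside the run of all 3 tumours of one dose and outside it in all 3 of the other. The order of doses on this side was seen after the fact in 6 tumours and is given with no test. With 0.3 or 0.5 in place of 0.4, the runs of MB8 and MB11 ended at the same genes, that of MB10 ended at Zfp825 (0.3), that of MB12 at Mctp1 (0.5), and those of MB7 and MB9 at Prxl2c (0.5).

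**Figure D3:**
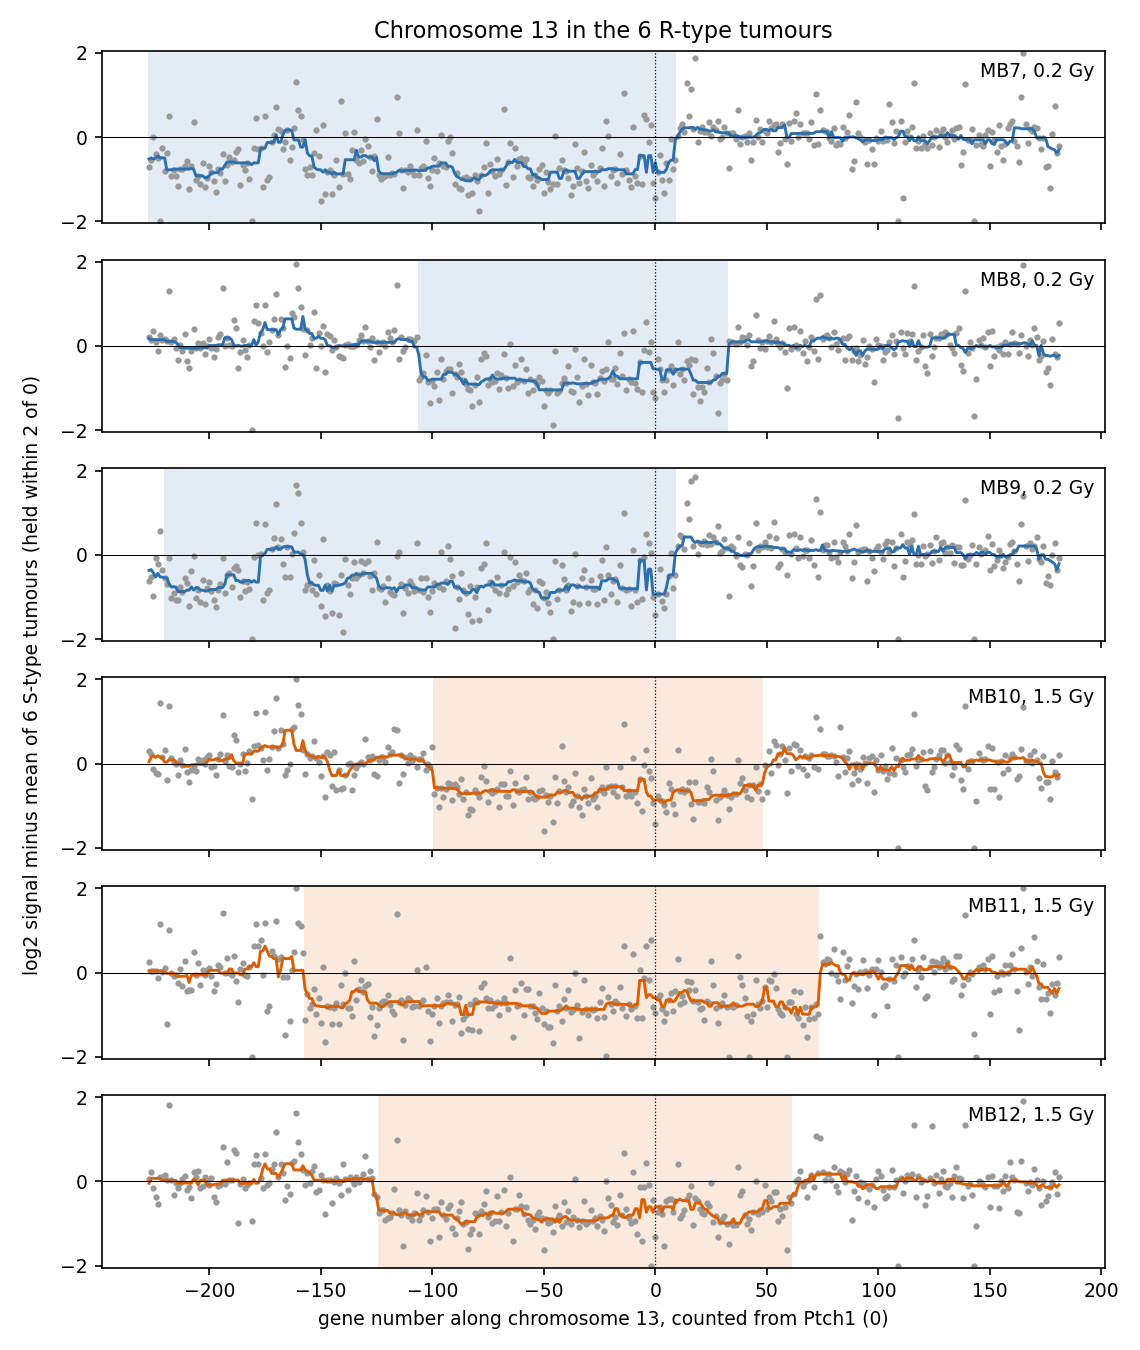
Log2 signal minus the mean of the 6 S-type tumours (y axis, held within 2 of 0) along the 409 genes of chromosome 13 used, counted from Ptch1 at 0 (x axis), with 1 panel for each R-type tumour; points are genes, lines are running medians of 11 genes, and shading marks the lowered run. The shading ends 9, 32 and 9 genes after Ptch1 in the 0.2 Gy tumours MB7, MB8 and MB9 and 48, 73 and 61 genes after it in MB10, MB11 and MB12.

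In further stretches on the side of Ndufs6 the lowered tumours did not match the dose groups exactly. The part from Uqcrb to Med10 holds 23 tested genes before the called stretch. Irx1, the gene that follows Med10 in the run search, lies in neither. Medians relative to S-type were taken over the 22 genes well above background on all 6 arrays. They were −0.71, −0.70 and −0.76 in MB10, MB11 and MB12 and −0.76 in MB8, but 0.20 in MB7 and 0.32 in MB9. None of the 23 was called. All 23 had changes below 0, and 4 were lower at 1.5 Gy without overlap, where 5.28% of all tested genes were. Their median change was −0.66, with −1.03 without MB8 and −0.37 with age as a term, against 0.09 between MB11 and MB8 on slide 2 and −1.003 between MB12 and MB7 on slide 3. From Erap1 to Nr2f1 lie 14 genes beyond Zfp825, with medians taken over 12 in the same way. Only MB11 (−0.70) and MB12 (−0.49) were below the S-type mean there, with the others at 0.08 to 0.27. All 14 had changes below 0, and 2 were lower at 1.5 Gy without overlap. From Arrdc3 to Edil3, 12 genes with medians over 11, MB11 alone was low at −0.99, and the other 5 lay between −0.01 and 0.13. Of these 12 genes, 11 had changes below 0 and 1 was lower at 1.5 Gy without overlap. These stretches and their end genes were chosen after their values were seen.

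Around Ptch1 all 6 tumours were low. From Nup153 to Mfsd14b lie 118 tested genes, 101 of them well above background on all 6 arrays. Over these 101 the medians relative to S-type were −0.83, −0.80 and −0.77 at 0.2 Gy and −0.66, −0.79 and −0.81 at 1.5 Gy. The median change between doses over the 118 was 0.01. Ptch1 itself stood at −3.22, −3.03 and −3.21 in MB7 to MB9 and at −3.20, −2.75 and −3.11 in MB10 to MB12, against an S-type mean of −1.78. Its log2 change was 0.13 (SE 0.167, adjusted p 0.92 in limma), with −0.0033 without MB11, and the groups overlapped. From Vcan to the last gene of the chromosome, 122 genes with medians over 110, the 6 medians lay between −0.01 and 0.08.

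On the other side of Ptch1 the starts of the runs did not part the doses. The runs began at Gdi2, the first tested gene of the chromosome, in MB7 and at Pitrm1 in MB9, and later at Carmil1 in MB11, Prpf4b in MB12, Pak1ip1 in MB8 and Sirt5 in MB10. The run held 227, 106 and 220 genes before Ptch1 in MB7 to MB9 and 99, 157 and 124 in MB10 to MB12, so that the doses overlapped. From Gdi2 to H2ac1 lie 90 tested genes, 72 of them well above background on all 6 arrays. Medians over the 72 were −0.57 in MB7 and −0.54 in MB9 and between 0.05 and 0.15 in the other 4 tumours. The median change over all 90 was 0.40, with none of them called and 14 of the changes below 0. Without overlap 9 were higher and 2 lower at 1.5 Gy, where 6.77% and 5.28% of all tested genes were. Arid4b, a chromatin protein of that part, stood at −0.11 and −0.07 in MB7 and MB9, 0.89 in MB8 and 1.02 to 1.18 in the 1.5 Gy tumours. Its values thus did not overlap between doses, with MB8 nearer to the 1.5 Gy tumours than to MB7 and MB9. Its log2 change was 0.85 (adjusted p 0.486 in limma, and 0.000239 without MB8).

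MB8, the 0.2 Gy tumour whose run differed from those of MB7 and MB9 on both sides, also decided the count of calls. Without MB8, 106 of the 159 called genes had a known chromosome, and 58 of these lay on chromosome 13, 25 lower and 33 higher at 1.5 Gy. All 15 genes called with all tumours were among the 159. With MB8 left out 2 tumours remain at 0.2 Gy, and the runs of both begin at or near the start of the chromosome and end at Mfsd14b. With 0.5 in place of 0.4 the run of MB9 began at Carmil1, as that of MB11 did.

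Whole chromosomes did not differ between doses beyond the spread of the tumours. The median over the genes of a chromosome differed between doses by at most 0.05 log2 units in size, for chromosome 6 (−0.05, two-sided exact permutation p 0.6), and by −0.01 for chromosome 13 (exact permutation p 1.0), where 0.1 is the smallest p that 3 against 3 tumours allow. On chromosome 6 the tumours ranged from −0.12 in MB10 to 0.08 in MB9 and MB11 around their mean.

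None of 433 tested genes in 32 gene lists was called by limma, beside 0.0692% of all genes. Values did not overlap for 68 of the 433 (15.7%, beside 12.0% of all genes). The unadjusted p in limma was below 0.05 for 54 of the 433, beside 1565 of all 21667 genes (7.22%). Medians of the lists ran from −0.53 to 0.53, and the median over the 433 genes was 0.01, beside 0.02 over all genes.

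Interferon and MHC class I genes, which respond to interferon and present antigen, all had changes below 0. The 17 tested members had changes of −1.74 to −0.05 with a median of −0.43, and 9 of them lay lower at 1.5 Gy without overlap, where 5.28% of all genes did. Their mean log2 signal was −0.43, −0.57 and −0.82 in MB7, MB8 and MB9 and −1.498, −1.13 and −0.97 in MB10, MB11 and MB12, so that the doses did not overlap. The S-type mean was −1.01, within the range of the 1.5 Gy tumours. Isg15, a ubiquitin-like protein induced by interferon, stood at −1.14, −1.82 and −2.41 against −3.38, −3.06 and −2.57 (log2 change −1.22, adjusted p 0.572 in limma). H2-K1, an MHC class I heavy chain, stood at 2.99, 2.59 and 2.71 against 2.50, 2.31 and 2.19 (−0.43, adjusted p 0.58), and its other probes gave −0.38 and −0.42. Ifit3, another interferon-induced gene, had a change of −1.07 (adjusted p 0.58) with overlapping values.

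Inflammation and chemokine genes had the lowest median of all lists. The 13 tested members ran from −2.20 to 0.26 with a median of −0.53, and 4 were lower and 1 higher without overlap, where 5.28% of all genes were lower and 6.77% higher. Cxcl10, a chemokine that draws T cells, stood at 0.50, −0.46 and −0.42 in MB7 to MB9 and at −2.08, −3.07 and −1.86 in MB10 to MB12. The gap between the groups exceeded the range inside either, and the log2 change was −2.20 (95% interval −3.27 to −1.14, adjusted p 0.391 in limma). Icam1, an adhesion molecule for leukocytes, had a change of −1.05 and Socs3, a feedback inhibitor of cytokine signalling, of 0.26 (adjusted p 0.572 for both). Ptx3, a secreted pattern recognition protein of inflammation outside the list, stood at 0.37, −0.65 and −0.46 against −2.17, −3.05 and −1.42 (−1.97, adjusted p 0.572), and its other probe gave −2.03.

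Markers of microglia and macrophages moved with these lists. All 13 tested members had changes below 0, from −0.64 to −0.19 with a median of −0.38, and 7 were lower at 1.5 Gy without overlap, where 5.28% of all genes were. Their mean log2 signal was 0.02, −0.20 and 0.20 at 0.2 Gy and −0.26, −0.52 and −0.41 at 1.5 Gy, against 0.10 in S-type tumours. The complement genes C1qa and C1qc, made in the brain by microglia, had changes of −0.47 and −0.41, and Cx3cr1, the microglial fractalkine receptor, of −0.34, none of them called (adjusted p 0.58, 0.612 and 0.58 in limma). All 3 were well above background on all 6 arrays, and so were 12 of the 13 markers. In bulk tumours fewer cells of a type and less RNA per cell cannot be told apart, and the part of these cells in the interferon and chemokine values was not tested. Over 20 alternatives the medians kept their sign, from −0.47 to −0.35 for the interferon list, from −0.64 to −0.30 for the chemokine list and from −0.48 to −0.28 for the microglia list.

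Markers of astrocytes and Bergmann glia had a median of −0.47 over 14 genes with no member parting the doses. It was −0.75 without MB8 and −0.11 with age as a term. Aqp4, the water channel of astrocytes, stood at 0.74, −1.55 and −0.29 against −1.31, −4.02 and −1.54, which shows the spread. MB7 was highest and MB11 lowest, and the log2 change was −1.92 (adjusted p 0.69 in limma). Fabp7, a fatty acid binding protein of radial and Bergmann glia, had a change of −1.22 and Hopx of −1.62 with overlapping values.

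**Figure D4:**
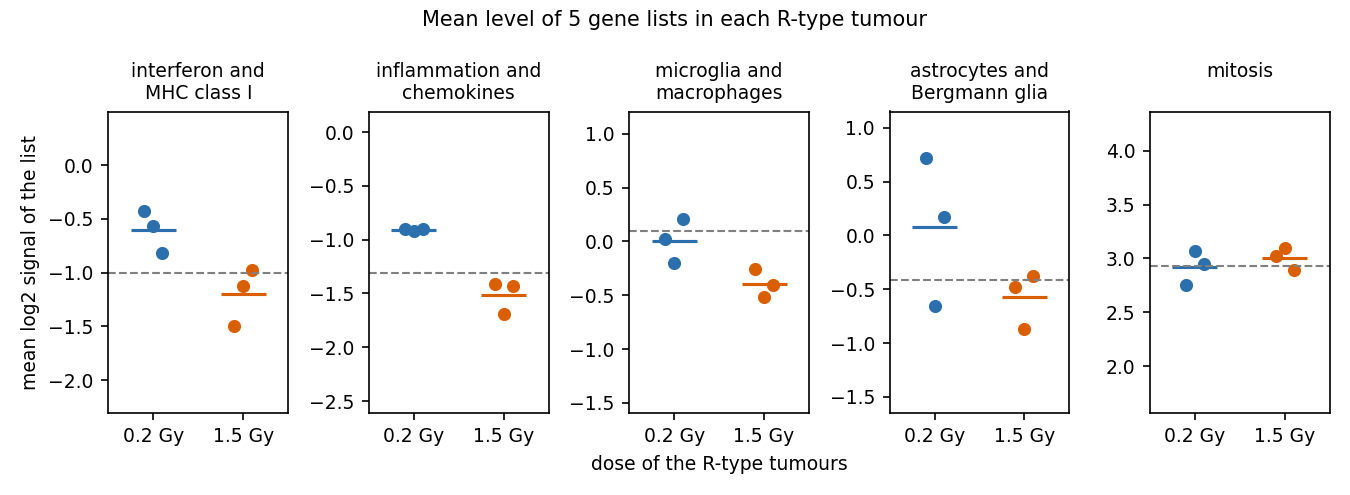
Mean log2 signal over the tested members of 5 gene lists (y axis, each panel spanning 2.8 log2 units) in the 3 tumours at 0.2 Gy (blue) and the 3 at 1.5 Gy (orange); short lines are group means and dashed lines the mean of the S-type tumours. The doses do not overlap for interferon, chemokine and microglia genes and overlap for astrocyte and mitosis genes.

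The p53 list, which holds the classical responders to DNA damage, had a median of −0.15 over 25 genes, with −0.27 without MB7 and −0.08 with slide as a term. Without overlap 5 were lower and 2 higher, beside 5.28% and 6.77% of all genes. Cdkn1a, the cell cycle inhibitor p21, stood at 1.27, 1.74 and 1.46 in MB7 to MB9 and at 0.54, 0.95 and 0.75 in MB10 to MB12 (log2 change −0.74, adjusted p 0.659 in limma). Plk2, a kinase induced by p53, had a change of −0.71 and Gadd45b, a stress-induced gene, of −0.32, both without overlap and neither called. Phlda3, a p53-induced repressor of Akt, had one of −0.70 with overlapping values. Of 26 genes of DNA damage response and repair the changes lay between −0.14 and 0.33. The highest was that of Fancc, the Ptch1 neighbour of the Fanconi anaemia pathway (0.33, adjusted p 0.612).

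The listed genes of mitosis and DNA replication differed little between the doses. Trip13, called above, is in neither list. The 20 mitosis genes had changes of −0.02 to 0.18, every 95% interval lay within 1 of 0, and none reached an unadjusted p of 0.05. The 19 genes of DNA replication had a median of 0.03, of the other sign under 4 of 20 alternatives, and a range of −0.39 to 0.22. The lowest was Ccne1, cyclin E1 (−0.39, adjusted p 0.685 in limma), which alone among them parted the doses. The 16 ribosomal protein genes ranged from −0.02 to 0.17, again with every interval within 1 of 0.

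Of the SHH pathway genes and targets none was called, and 1 had a large measured change. Over 17 genes the median was 0.18, or 0.09 with age as a term, and the range was −2.77 to 0.76. The 95% interval lay within 1 of 0 for 13 of them. The unadjusted p in limma was below 0.05 for 5 of the 17, beside 7.22% of all genes. Without overlap 4 were higher and 1 lower, beside 6.77% and 5.28% of all genes. Igf2, a growth factor and SHH target in granule neuron precursors that is also imprinted, stood at 4.39, 3.08 and 4.14 in MB7, MB8 and MB9 and at 1.76, 0.47 and 1.07 in MB10, MB11 and MB12. Every 0.2 Gy tumour was above every 1.5 Gy tumour, and the S-type mean was 0.84. The log2 change was −2.77 (95% interval −4.13 to −1.42, SE 0.621), with −2.62 on slide 2 and −3.32 on slide 3. It was not called (adjusted p 0.391 in limma, 0.0757 to 0.9999 over 20 alternatives), and its other probe gave −2.85. Sfrp1, a secreted WNT antagonist and SHH target, stood at 5.10, 5.41 and 5.05 against 5.76, 5.85 and 5.53 (0.53, adjusted p 0.572), and Mycn, a proto-oncogene driven by SHH, had a change of 0.23 (adjusted p 0.612).

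Of the genes that part R-type from S-type tumours, chosen earlier on these arrays, the 13 tested had a median change of −0.29 between doses and none was called. That median was 0.18 with slide as a term and −0.79 with age as a term, so its direction rests on the model. Plagl1, an imprinted zinc finger gene, had a change of −0.37 (adjusted p 0.853 in limma), with overlapping values and 0.05 with age as a term. Tgfb2, a TGF-beta ligand, had one of 0.40 (adjusted p 0.692). Cdkn2a, which encodes 2 tumour suppressors, stood at −2.66, −1.53 and −1.52 against −2.77, −2.33 and −3.26 (−0.88, adjusted p 0.705). Cdkn2b, its neighbour, stood at 0.19, 1.13 and 1.11 against −0.06, 0.18 and 0.31 (−0.67, adjusted p 0.602). Values of the doses overlapped in both genes.

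Among genes with a symbol no upward change was called. Slc2a13, a myo-inositol transporter, stood at −2.99, −2.15 and −3.56 in MB7 to MB9 and at −1.67, −1.08 and −1.52 in MB10 to MB12 (log2 change 1.48, SE 0.279, adjusted p 0.189 in limma, and 0.00174 without MB8). The heat shock genes Hspa1a and Hspa1b, near-identical copies whose probes may not be told apart, had changes of 1.13 and 1.13, with Hspa1a at −1.36, −0.79 and −2.17 against −0.76, 0.31 and −0.46. MB8 and MB10 were close to each other in both genes. Others that parted the doses were Serpina1d (1.49), one of several near-identical antitrypsin genes, Chil3 (1.41), a macrophage chitinase-like gene, Rbp7 (1.35), Hrh3, the histamine H3 receptor (1.28), Ica1l (1.15), Tmem98 (1.13), Foxa2 (1.103) and Adck5 (0.95, adjusted p 0.00595 without MB8 and 0.9997 without MB9). Without MB7 the change was 0.69 for Tmem98 and 0.43 for Foxa2.

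**Figure D5:**
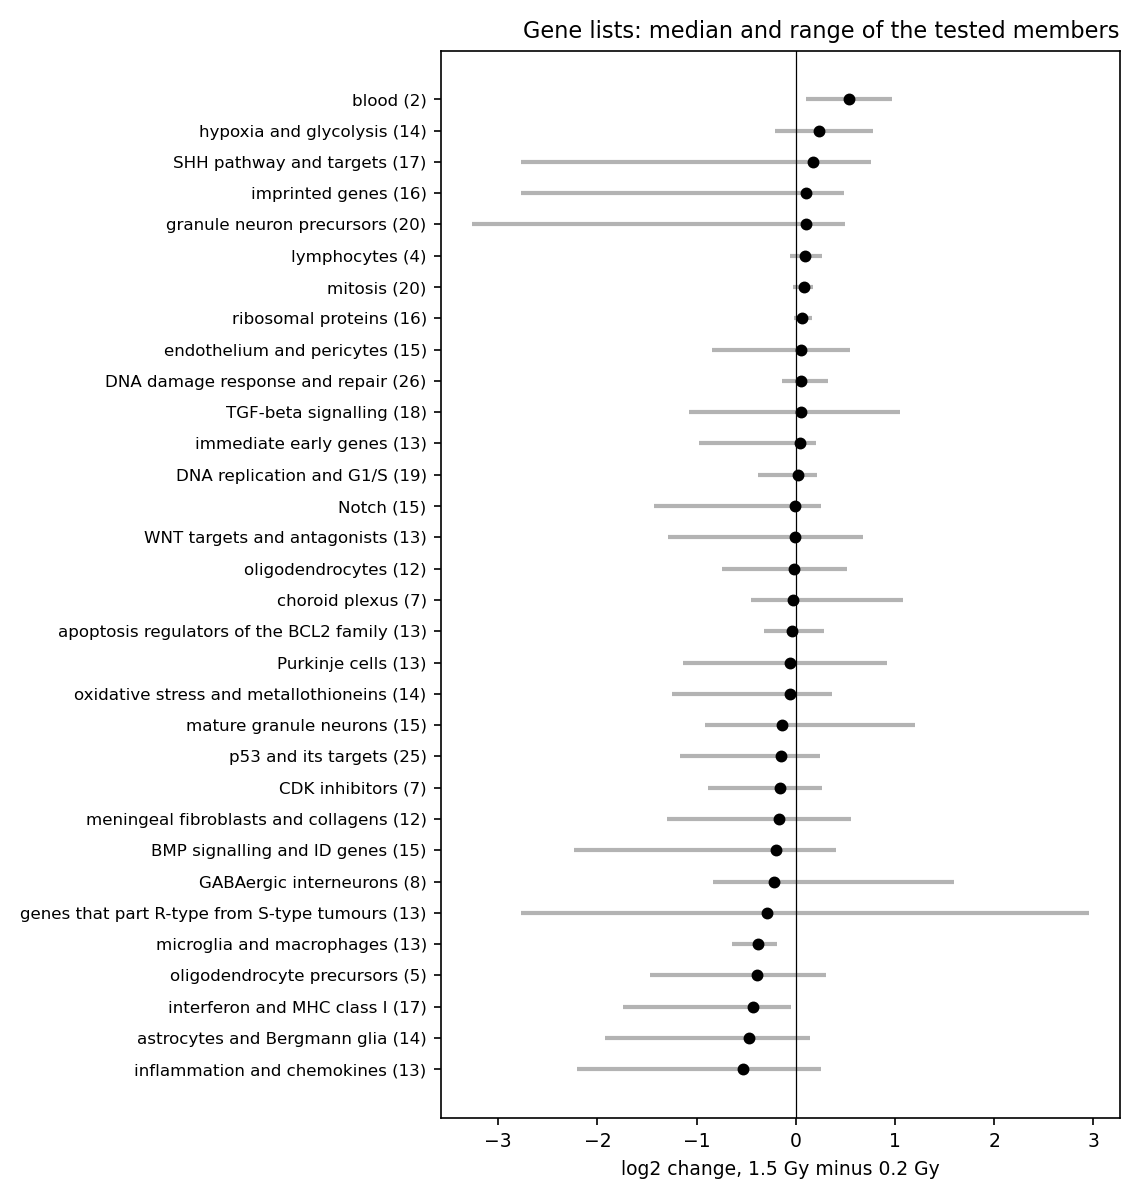
Median (points) and range (bars) of the log2 change between doses (x axis, 1.5 Gy minus 0.2 Gy) over the tested members of 32 gene lists, with the number of members in brackets. Medians run from −0.53 for inflammation and chemokines to 0.53 for blood, a list of 2 genes whose median turned sign under 1 of 20 alternatives, and the bars of mitosis and ribosomal protein genes are the shortest.

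Across all tested genes, tumours of one dose were hardly more alike than tumours of different doses. Pairwise correlations, taken over genes and so not over independent units, were 0.981 to 0.989 within a dose and 0.976 to 0.988 between doses, and their means differed by 0.0018 (two-sided exact permutation p 0.4, with 0.1 the smallest possible). The lowest of all was that of MB7 and MB11. MB11 also had the most genes at least 4-fold below the median of the other R-type tumours and outside their range, 96, where the others had 4 to 20. A probe of Ubtf, an RNA polymerase I factor chosen here as an example after its values were seen, was at −7.36 in MB11 and 4.31 to 4.53 in the other 5, while a further Ubtf probe was at 3.62 in MB11 and 3.47 to 3.65 in the others.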

How the data were processed

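The deposited scanner output of each array gave linear spot intensities, background-subtracted per the file headers. Agilent Feature Extraction 9.5.1 is named by the submitters' processing notes. The deposited series table holds log2 values whose making is not given in the sources used here. Set against the scaled log2 signals, its array-to-array differences had correlations from 0.99991 up to 0.99999. Its MB1 and MB2 columns cancel at each probe, so their mean was read as the reference, and why it was chosen is unknown. The medians of its columns were 0.00242, 0.082 and 0.0892 (normal cerebella) and, from MB1 to MB12, 0.0506, −0.0506, 0.106, 0.0682, −0.0795, 0.0525, 0.0703, 0.13, 0.127, 0.0908, 0.152 and 0.099.

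The log2 processed signal minus the 75th percentile of each array was used. Control spots and 76 probes marked as non-uniform or outliers were left out. Of 41174 probes, 24800 were named through a RefSeq accession and the others kept their own name. For each name the probe with the highest mean over 15 arrays was taken, and the test covered 21667 names whose probe passed the scanner software's background test on 3 or more arrays. A symbol was known for 13433. Gene order comes from a RefSeq table of another assembly than the array annotation, so no coordinates are given. Group means of 5 groups of 3 arrays were fitted in R 4.3.3 by limma 3.58.1 (10 residual degrees of freedom, 1.70 prior), two-sided, with Benjamini-Hochberg adjustment at 0.05 over all tested names. The test was checked on simulated data. Summaries used pandas 2.3.3 under Python 3.11.15. The number of arrays limits the precision. A change against a group with no signal well above background is given as a bound.

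The members, the 32 gene lists (a further list of sex-linked genes gave 1 tested gene, Xist) and the naming rule were chosen with earlier results of these data known. The rule took the 12 highest and 12 lowest called genes with symbols, filled with uncalled genes at an unadjusted p below 0.05 that parted the doses, up to 3 members of each list with the smallest p, and Ptch1, Plagl1, Tgfb2, Cdkn2a, Igf2 and Xist. Alternatives changed the scaling, background correction, probe choice, filter, samples and model terms, or left out 1 tumour.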

Additional observations from a re-analysis of the deposited data

How the results depend on the processing

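The count of called genes, 15, became 0 with the array median subtracted and 0 with only the 6 R-type arrays in the fit, 8 with age as a linear term and 23 with all probes fitted one by one, and ranged from 9 to 159 when 1 tumour was left out. The other 11 alternatives with all 6 tumours gave 10 to 19 calls. Called genes shared with the 15 numbered 15 under quantile normalization and with the deposited log2 table, and 8 without MB9. The count at an unadjusted p below 0.05, 1565, became 894 with age and 2474 with array weights, and ranged from 859 to 2374 with 1 tumour left out. Among 73 named genes, 4 changes turned their sign, none of them called: Ptch1 (−0.00329 without MB11, up to 0.223 without MB10), Plagl1 (0.0473 with age as a term), Xist (−0.384 without MB9 to 2.21 without MB7, and 2.38 with array weights) and Ubtf (0.0882 without MB11, down to −5.86 without MB10). The causes were not tested. The median of the stretch from Ndufs6 to Zfp825 and that from Uqcrb to Med10, alternatives added after seeing the data, kept their sign throughout (−0.89 to −0.71 and −1.03 to −0.37). The medians of 21 of 32 lists turned sign under at least 1 of 20 alternatives, while those of the interferon, chemokine, microglia, astrocyte, p53 and SHH lists did not. The exact p of the likeness of tumours was 0.4 under each alternative. With genes well above background on all 6 arrays, the differences of chromosomes 6 and 13 kept their sign and those of chromosomes 1, 15 and 19, all under 0.01 in size, turned. No paired analysis was possible because the doses share no replicate numbers. With slide as a fixed term 12 genes were called, 11 of them among the 15. Only 2 slides held both doses, and age and array position cannot be told apart from dose. Genes near background have wide intervals and cannot show small changes.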
